A study of Mus musculus with 12 samples.

Results

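The 3 sites described here are Nrf2 peaks upstream of Igf1 in mouse peritoneal macrophages, all 3 regions with a peak inside chr10:87200000-87450000 (build mm9). They hold 15 of the 8644 peaks of the series and are 3 of the 4147 regions into which those peaks merge. The window was chosen from measured values. Of the regions with a peak in every library, 2 lie upstream of Igf1, and the rank of their score had been seen to go opposite ways in the 2 genotypes. Presence and score ranks at these sites are therefore given as a description, with no test.

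Nrf2 is a transcription factor that Keap1 holds at a low level until electrophiles or oxidants modify Keap1. It then pairs with small Maf proteins and binds antioxidant response elements, which control genes for detoxification, glutathione and NADPH supply. In the AY protein, tyrosine is known to replace an alanine of the DNA-contacting basic region, and Maf proteins carry tyrosine at the matching place. Igf1 encodes insulin-like growth factor 1, a secreted hormone that acts through the receptor Igf1r. The liver supplies most of it to the blood, and macrophages make it in tissues, where it is known for its part in repair.

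Chromatin immunoprecipitation with an anti-Nrf2 antibody was followed by sequencing, with 3 libraries from wild-type (WT) cells and 3 from cells homozygous for the AY allele, Nrf2(AY/AY). Mice aged 7 to 8 weeks received thioglycolate broth (4%), an irritant that draws macrophages into the peritoneum, and the cells were harvested after 4 days. Cells of both genotypes were exposed to the electrophile diethyl maleate (100 µM, 4 hours), so no group without it stands beside these values. The labels do not say that libraries came from separate animals, and the spread between them may be technical. WT lists held 1604, 826 and 1533 peaks and AY lists 2154, 1441 and 1086 (replicates 1, 2 and 3), and the read depth behind them is unknown. Peaks on Y were absent from WT replicates 1 and 3 and numbered 18 in WT replicate 2 and 15, 27 and 20 in the AY libraries. Peaks on X numbered 46 and 121 in WT replicates 1 and 3 against 12 to 29 in the other 4 libraries. This split goes in part with genotype, and its part in the results was not tested. WT replicate 2 was the only WT library with Y peaks, and no AY library lacked them. Its ranks are given below with those of the other WT libraries, and 1 library cannot decide the part of this split.

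Igf1 (gene ID 16000) lies on the forward strand of chromosome 10. Its start in mm9 was supplied with the choice of the window as about 87322000, rounded and not read from the deposited files, so distances from it are approximate. In the order of genes of the GRCm38.p6 annotation, the neighbours of Igf1 are the long non-coding RNA Igf1os, which overlaps it, and the tRNA gene n-TKctt21 on one side, and the pseudogene Tyms-ps and the long non-coding RNA Gm30233 on the other. Whether a site lies inside Igf1os was not analysed here, because that annotation is on another build than the peaks. None of the 6 libraries had a peak in the 144.1 kb from the end of the nearest site to the end of the window. This stretch takes in the supplied start of Igf1 and 128 kb beyond it, and the gene spans 78783 bp in GRCm38.p6. The sequence of the promoter that RefSeq lists for Igf1 is shown. It covers chr10:87860861-87861110 (GRCm38.p6, forward strand), the 250 bases before the listed start, with the match to a searched motif in capitals. Whether the listed start is the only or the outermost start of the gene was not analysed here.
Igf1 promoter: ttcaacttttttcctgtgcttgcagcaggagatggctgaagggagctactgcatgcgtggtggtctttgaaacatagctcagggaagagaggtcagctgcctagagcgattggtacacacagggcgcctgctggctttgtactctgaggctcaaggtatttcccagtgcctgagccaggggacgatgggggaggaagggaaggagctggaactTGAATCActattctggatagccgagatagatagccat
The antioxidant response element core TGANNNNGC, searched on both strands, had no match here and had at least 1 match in 35.2% of 32851 RefSeq promoter windows of this length. The related core TGANTCA, known from AP-1 and Maf sites, matched 1 time, as TGAATCA, with its first base 37 bases before the start, and occurred in 6.75% of the windows. The motifs overlap where TGANTCA is followed by GC. A match describes letters only. Sequences of the 3 bound sites were not used here, since no mm9 genome was at hand.

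The sites are called distal, middle and proximal by their distance from Igf1. The distal region, chr10:87293266-87293891, is 626 bp wide and its middle lies about 28 kb upstream of the supplied start. The middle region, chr10:87294600-87295453, is 854 bp wide, about 27 kb upstream, and begins 708 bp after the distal one ends. The proximal region, chr10:87304967-87305896, is 930 bp wide and about 17 kb upstream, with 9513 bp between it and the middle region. Outside the window, the next region downstream began 527.1 kb beyond the window's end, and the next upstream ended 14.4 kb before its start, with peaks in 2 AY and 0 WT libraries. Over the genome, 330 of the 2544 bins of 250 kb with any region held 3 or more (13.0%).

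Peaks were present in all 6 libraries at the middle and the proximal region, as at 202 of all 4147 regions (4.87%). Presence alone thus did not separate the genotypes at these 2 sites. The score did. It is the peak caller's own value, which is read here as -10 log10 of a p-value and starts at 50 in these lists. Because scores move with read depth, ranks within a list were used to compare genotypes. Ranks may not remove the part of depth, since the lists differed in length. Each peak was given its rank in its library's list, where 1 is the highest score and ties share a mean rank, and that rank as a percent of the list, so that a low percent stands for a strong peak.

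At the middle region the AY protein gave one of the strong peaks of every AY list, while the WT peak lay in the middle or lower part of every WT list. AY replicates 1, 2 and 3 had scores of 978.5, 690.6 and 437.0, at ranks 47, 45 and 37. WT replicates 1, 2 and 3 had scores of 125.5, 56.3 and 70.9, at ranks 692, 670.5 and 1009. As a percent of the list, the rank was 2.18%, 3.12% and 3.41% in AY and 43.1%, 81.2% and 65.8% in WT. AY libraries averaged 2.90% ± 0.641 and WT libraries 63.4% ± 19.1 (SD, n = 3 per genotype), an AY minus WT difference of -60.5 percentage points. The ranks of the genotypes did not overlap, and 39.7 points lay between the weakest AY and the strongest WT rank. Every AY rank was ahead of every WT rank in this way at 42 of the 202 regions found in all libraries (20.8%).

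The proximal region had the reverse order. WT replicates 1, 2 and 3 had scores of 665.3, 461.9 and 441.2, at ranks 51, 34 and 53. AY replicates 1, 2 and 3 had scores of 168.5, 77.85 and 61.1, at ranks 735, 939.5 and 848. The WT peak was thus among the strong ones of every WT list, and the AY peak was of moderate score in replicate 1 and near the threshold in replicates 2 and 3. In percent of the list, WT ranks were 3.18%, 4.12% and 3.46%, and AY ranks 34.1%, 65.2% and 78.1%. WT libraries averaged 3.58% ± 0.481 and AY libraries 59.1% ± 22.6 (SD, n = 3 per genotype), an AY minus WT difference of 55.6 percentage points with no overlap and 30.0 points between the nearest ranks. Such a lead of all WT over all AY ranks was found at 54 of the 202 regions (26.7%).

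**Figure D1:**
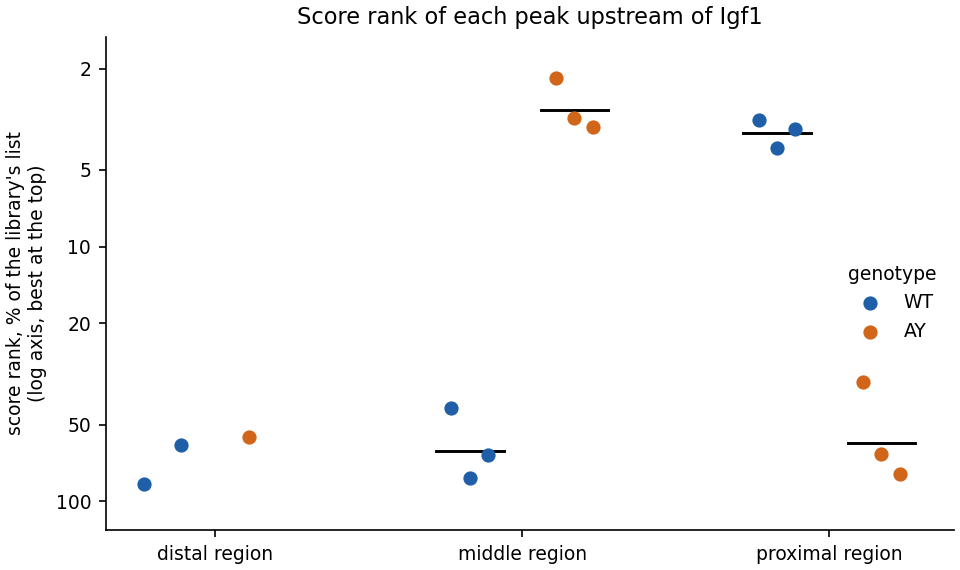
Rank of each peak's score as a percent of its library's list (log axis, best at the top) at the distal, middle and proximal regions. Points are libraries (WT blue, AY orange, replicates 1 to 3 from left to right), and bars are means where all 3 libraries of a genotype had a peak. The 3 AY points at the middle region lie between 2.18% and 3.41% and the 3 WT points at the proximal region between 3.18% and 4.12%, while the other genotype lies at 34.1% or below in the plot at both sites.

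Within each single list, the 2 sites changed places with genotype. The proximal peak outscored the middle peak in 3 of 3 WT lists, by 641, 636.5 and 956 places (replicates 1, 2 and 3). The middle peak outscored the proximal peak in 3 of 3 AY lists, by 688, 894.5 and 811 places. These orders compare 2 peaks of the same library and restate the ranks for which the sites were chosen. Whether depth acts alike on strong peaks and on peaks near the threshold was not tested. The strong site of each genotype held a similar place in its lists, with ranks 37 to 47 for the middle region in AY and 34 to 53 for the proximal region in WT. Among the 202 regions found in all libraries, ranked by themselves, the middle region came 22 to 32 in AY and 183 to 196 in WT. The proximal region came 29 to 43 in WT and 170 to 188 in AY.

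The distal region was weak wherever it was found. It had a peak in WT replicates 1 and 3 and in AY replicate 1, with scores of 58.1, 76.05 and 104.2 at 85.7%, 60.3% and 55.9% of the lists. These are the libraries with the 3 longest lists, and the part of list length in this pattern was not tested. Of all regions, 114 (2.75%) were found in exactly 3 libraries that included both genotypes, and 49 of these 114 were in this same set of libraries. The AY rank was ahead of both WT ranks, by 4.41 points from the nearer, and the WT ranks lay 25.4 points apart. With 1 AY peak no spread can be given for AY. In AY replicate 1 the distal peak lay next to a middle peak at rank 47, and was itself at rank 1204.

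Peaks of both genotypes lay at the same positions. At the middle region 280 bp (chr10:87294851-87295130) were covered by the peak of every library, and no peak midpoint lay more than 65.5 bp from the middle of the region. At the proximal region the shared stretch was 401 bp (chr10:87305312-87305712) and the largest offset 80.5 bp. Midpoints of the 2 peaks of a library were 10332 to 10526 bp apart. The opposite ranks were thus measured at 2 separate positions, each with a peak in both genotypes. Peaks of the weaker genotype tended to be narrower. At the middle region AY peaks were 777, 824 and 824 bp wide and WT peaks 842, 339 and 461 bp (replicates 1, 2 and 3). At the proximal region WT peaks were 886, 818 and 894 bp wide and AY peaks 852, 535 and 401 bp. Replicate 1 of the weaker genotype was the exception at both sites, with a width like that of the stronger genotype and the highest score of its own 3. Width and score went together over whole lists (Spearman's rho 0.651 to 0.844 across the peaks of each library, which share that library), so width adds no separate measure.

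**Figure D2:**
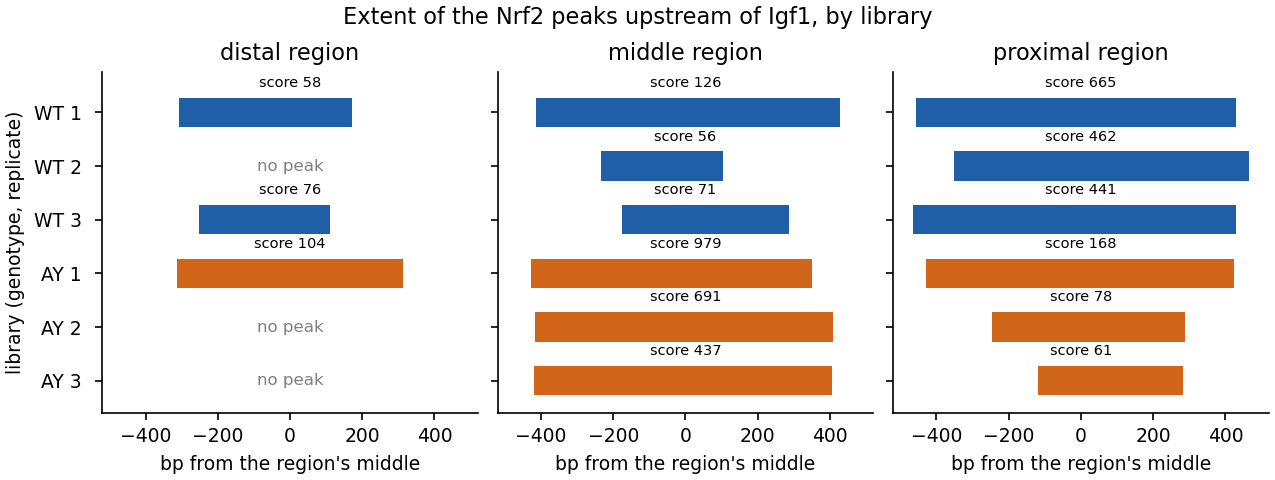
Extent of each peak in bp from the middle of its region, by library (rows; WT blue, AY orange), with its score, for the distal, middle and proximal regions. At the middle and proximal regions the bars of all 6 libraries cover a shared centre of 280 and 401 bp, and the shortest bars are those of WT replicate 2 at the middle and AY replicate 3 at the proximal region.

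Under stricter limits each site kept its peak in every library of 1 genotype and lost it in some libraries of the other. At a score of at least 100, the middle region kept its peak in 3 of 3 AY libraries and in 1 of 3 WT libraries, replicate 1. The proximal region kept it in 3 of 3 WT libraries and in 1 of 3 AY libraries, also replicate 1. Of the 202 regions found in all libraries, 9 (4.46%) kept 3 AY and at most 1 WT peak in this way, and 20 (9.90%) kept 3 WT and at most 1 AY peak. The distal region kept only its peak of AY replicate 1. A fixed score is not the same limit in every library, since depth is unknown and 392 to 1240 peaks per list reached it. A rank percent is not free of list length either. At the middle region WT percents were 43.1, 65.8 and 81.2 in lists of 1604, 1533 and 826 peaks. At the proximal region AY percents were 34.1, 65.2 and 78.1 in lists of 2154, 1441 and 1086 peaks. The part of depth and list length in these percents was not tested. With the same number of top peaks from each list (826), the middle region kept its peak in 3 of 3 AY and 2 of 3 WT libraries. The proximal region kept it in every WT library and in 1 AY library, and the distal region had none left. In these cut lists 133 regions were found in every library, against 202 in the full lists. How many of the 202 lost peaks in these same ways was not counted. Both limits use the scores for which the sites were chosen. Where the sites count as found in every library, this rests on peaks close to the threshold of 50, such as the middle peak of WT replicate 2 at 56.3 and the proximal peak of AY replicate 3 at 61.1.

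Both sites stood at the edges of the 202 regions found in all libraries. The AY minus WT difference in mean rank over these regions had a median of 1.96 percentage points and ran from -60.5 to 75.1. The middle region held the lowest value, the largest shift towards AY, and the proximal region the third highest. On a log scale of rank they took the fifth place towards AY and the sixth towards WT. These places follow from the choice of the sites and are no support for it. Regions without a peak in every library have no such difference, so those found in WT or AY only were not ranked here.

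**Figure D3:**
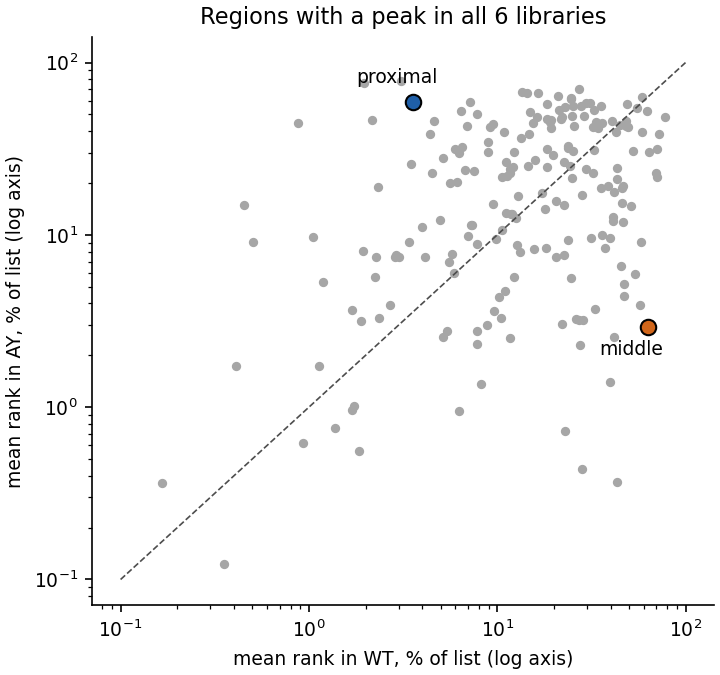
Mean rank in AY against mean rank in WT, in percent of the list (both axes log, 3 libraries each), for the 202 regions with a peak in every library, with equal ranks on the dashed line. The middle region (orange, 63.4% in WT and 2.90% in AY) and the proximal region (blue, 3.58% in WT and 59.1% in AY) lie on opposite sides of the line.

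The opposite preference of 2 nearby sites is set here beside the other neighbouring pairs. Taken singly, 20.8% of the 202 regions had separated ranks towards AY and 26.7% towards WT. Among the 202 regions there were 19 neighbouring pairs at most 50 kb apart. In 15 of them at least 1 member had ranks that overlapped between genotypes. In the other 4 both members had ranks that did not overlap, and 3 of these 4 were ahead in WT at both members. The pair upstream of Igf1 was the other one, so separated ranks in opposite directions occurred in 1 of 19 pairs (5.26%), the pair that had been chosen for it. By the sign of the mean difference alone, 7 of the 19 pairs went opposite ways. Regions without a peak in every library, such as those found in WT or AY only, could not enter these pairs. How often such neighbours went opposite ways was not counted. Without AY replicate 3, when 5 libraries had to hold a region, 3 of 28 pairs had separated ranks in opposite directions, and without WT replicate 2 it was 2 of 20, each time with the Igf1 pair among them.

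**Figure D4:**
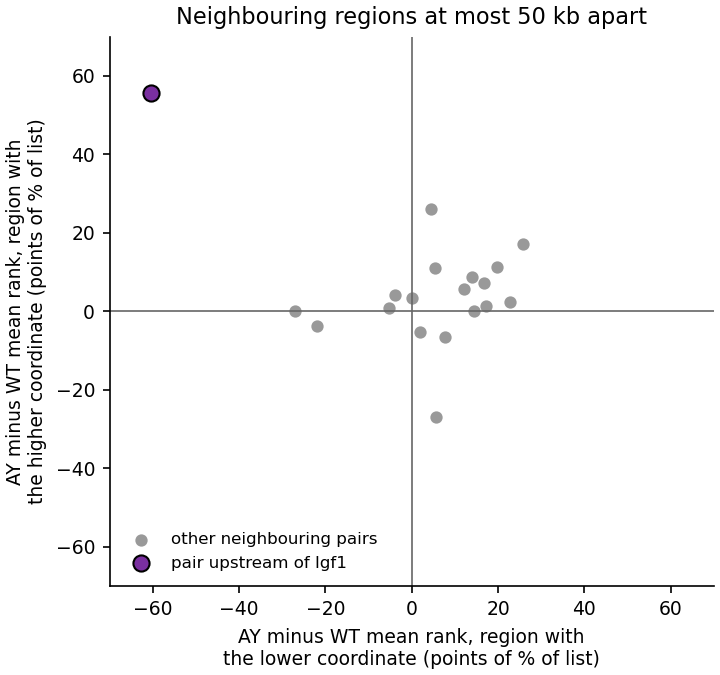
AY minus WT difference in mean rank (points of percent of list; negative values are ranks ahead in AY) of the region with the higher coordinate against that of its neighbour with the lower coordinate, for the 19 neighbouring pairs at most 50 kb apart. The pair upstream of Igf1 lies alone at the upper left, at -60.5 for the middle and 55.6 for the proximal region, and the other 18 pairs lie between -27.1 and 26.0 on both axes.

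Other regions shared each site's pattern of ranks singly. Likeness was measured as the Euclidean distance of log10 rank percent over the 6 libraries, among the regions found in all of them. Nearest to the middle region was chr6:129166076-129167005 (distance 0.299), at a mean of 57.5% in WT and 3.93% in AY. It was followed by chr8:126407201-126408126 (0.542) with 41.8% and 2.56%, and by chr7:134413593-134414589 (0.578) with 47.2% and 4.43%. Nearest to the proximal region was chr12:117376685-117377545 (0.429), at 4.39% in WT and 38.6% in AY. Next came chr5:149539895-149540692 (0.479) with 4.61% and 45.7%, and chr12:33430366-33431306 (0.503) with 3.09% and 78.2%. All 6 had ranks that did not overlap between genotypes, which their choice by these ranks makes likely. None of them lay on chromosome 10.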

How the data were processed

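The submitters' processing notes name build mm9 with MACS 1.4, Bowtie2 and bcl2fastq 2.15.0. Not given in the sources used here were the settings, the Bowtie2 version, the treatment of duplicate reads and the control used for each library. For every ChIP library the authors deposited 1 peak list with 5 columns, the last a score. The 6 input libraries were not analysed here. Coordinates are printed counting from 1. Peaks of the 6 lists were merged where they shared at least 1 bp, and the best rank was used where a library had several peaks in a region. Ranks, neighbouring pairs (at most 50 kb apart) and 250 kb bins were computed in Python 3.11.15 (pandas 2.3.3, numpy 2.4.6). Merging, ranks and pairs were tested on simulated data with known answers. Every region of the window is named, with the 3 regions most like each of the 2 found in all libraries and up to 5 neighbouring pairs of opposite direction. The members and all lists and rules were chosen with earlier results of these data known. Other genes of the IGF pathway and motifs in the peaks were not analysed here, since no mm9 annotation or sequence was at hand. Since depth is unknown, a site without a peak in a library may still be bound below the caller's threshold.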

Additional observations from a re-analysis of the deposited data

How the results depend on the processing

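The AY minus WT difference in mean rank kept its sign, with ranks that did not overlap, in the 11 alternatives that changed its value for the middle region (-80.0 to -51.6 percentage points) and the 10 for the proximal region (46.0 to 83.4). The other 3 and 4 left the value as it was, the replicate block and the mean rank by construction, and so test nothing. Runs with libraries left out could show neither overlap nor a change of sign. The libraries that stayed kept their ranks, which were already apart, so these runs show only how far the size moved. Lists cut by score or to the 826 top peaks also kept the rank number of each peak that stayed. Only the length of the list changed, so the sign kept there is no support either. Most of the 11 and 10 alternatives are runs of these kinds, and all use the ranks for which the sites were chosen. It moved by more than the larger SD of the genotypes for the middle region ranked among the regions held by all libraries (-80.0) and for the proximal region in lists cut to the 826 top peaks (83.4, with 1 AY peak left). With each library left out in turn the differences were -70.6 to -51.6 and 46.1 to 68.1, and the window held 3 regions each time. A window wider by 100 kb on each side held 5 regions, the added ones with peaks in AY libraries only (1 and 2 of 3). Neighbouring pairs of opposite direction numbered 0 at a score of at least 100, where the 2 sites lacked peaks in some libraries, 2 within 100 kb, and 1 to 3 with a library left out. In lists of 826 peaks the count was 1, but the pair was another, on chromosome 1. Leaving out both libraries numbered 3, added after the data were seen, gave 3. With the replicate number as a block, the differences were -60.5 and 55.6, and every same-numbered pair had the same sign (-78.1 to -41.0 and 30.9 to 74.6). The numbers were not taken as pairing: deviations of presence correlated at 0.096, 0.086 and 0.195 for numbers 1, 2 and 3. Each library nonetheless had its highest such correlation with the same-numbered one, though the labels state no pairing. Unknown depth limits every absence of a peak.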
